A study of Caenorhabditis elegans with 12 samples.

Results

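Larvae of 2 Caenorhabditis elegans muscle mutants were compared as a single set with wild type, to describe the genes that shifted alike in both. The mutant side held 8 libraries, 4 of unc-120(st364), strain RW364, and 4 of fhod-1(tm2363), strain XA8001. The wild-type side held 4 libraries of the N2 strain. All 12 libraries came from polyadenylated RNA of whole larvae at the L3 stage, grown at 15 °C on Escherichia coli and otherwise untreated. A gene was counted as shared when the means of both mutants lay on the same side of the wild-type mean and all 8 mutant values lay beyond all 4 wild-type values. A value of 10 or more in 4 or more libraries was required for testing, which 5921 genes reached, and 102 of these (1.72%) met the rule, 43 of them higher (0.726% of tested genes) and 59 lower (0.996%) in the mutants. Of all 23515 genes in the table, 404 met it, and the other 302 were below that filter.

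UNC-120 is the serum response factor relative of C. elegans, a transcription factor that acts in body-wall muscle. FHOD-1 belongs to the formins, which build unbranched actin filaments, and takes part in the growth of the contractile lattice of the same muscle. Only the N2 stock represented wild type, so a change shared by both mutants and a difference particular to that stock cannot be told apart for any gene below. The labels also do not say whether the 4 libraries of a group came from separate cultures, so p-values measure only the spread between these libraries. One label, the source name, exchanges the strain names of the 2 mutants, and the groups here follow the genotype, strain, title and description labels. Pooling 8 libraries gives the rule the same form under either reading.

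Levels are in a length-scaled unit proportional to TPM, a transcript's share of the library corrected for its length, with the same total in every library. About 19200000 to 28000000 reads per library were estimated from the spacing of low values, which is approximate. Between 19591 and 20143 genes were above 0 in unc-120(st364) libraries, between 19896 and 20472 in fhod-1(tm2363) libraries and between 19400 and 19704 in wild-type libraries. For each library, the log2 level of a tested gene minus that gene's mean over the 12 libraries was fitted against log2 gene length. The slope ranged from -0.327 in unc-120(st364) replicate 2 to 0.179 in a fhod-1(tm2363) library. Its mean was -0.007 over unc-120(st364) libraries, 0.005 over fhod-1(tm2363) libraries and 0.002 over wild-type libraries. By construction the slopes average 0 over the 12 libraries, so they show only how libraries differ from each other.

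Of the mutated genes, fhod-1 did not separate the groups by its level, whereas unc-120 did, highest in unc-120(st364) and lowest in wild type. A level alone does not identify a mutation. The gene fhod-1 averaged 4.47 ± 1.72 in unc-120(st364) larvae, 4.79 ± 1.48 in fhod-1(tm2363) larvae and 5.63 ± 1.09 in wild-type larvae (SD, n = 4 each), and the groups overlapped (both mutants against wild type, log2 difference -0.27, exact two-sided permutation p = 0.204). A value per gene does not show a partial deletion or a changed base, so it does not check that label. The gene unc-120 stood at 28.2, 25.6, 37.0 and 43.1 in unc-120(st364) larvae and at 18.1, 19.4, 17.4 and 20.3 in fhod-1(tm2363) larvae, against 9.63, 15.2, 13.1 and 15.9 in wild-type larvae. It is itself a shared gene, with a pooled log2 difference of 0.86 and an exact permutation p of 0.00808, where 0.00202 is the smallest that 8 libraries against 4 can give. Each mutant alone against wild type gave an exact p of 0.0286, the smallest that 4 against 4 allows. Any gene that meets the rule has this p in each mutant by construction, and the pooled p comes from the same separation. These p-values therefore add no support to the rise. D1081.17 lies on the opposite strand within unc-120, and the strand setting of the authors' counting is not given in the sources used here.

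Both mutants against wild type gave 99 genes with an adjusted p under 0.05 (limma on log2(value + 1), Benjamini-Hochberg over 5921 genes), 54 higher and 45 lower. That is 1.67% of tested genes, 0.912% higher and 0.76% lower, and 751 genes had an unadjusted p under 0.05. Of the 102 shared genes 57 were among the 99, 26 of the 43 higher and 31 of the 59 lower. The rule itself used the libraries of this contrast. Those shares, and the p-values and left-out fits of single shared genes below, are therefore a description only. Of the 26 called shared higher genes 8, and of the 31 called shared lower genes 14, passed the test in all 12 fits that left out a library. Leaving out wild type replicate 4 raised the 99 called genes to 175 and the 102 shared genes to 323, and leaving out wild type replicate 3 gave 41 called genes. Without unc-120(st364) replicate 1 or 2 the shared genes numbered 209 or 167. A rule over fewer libraries is easier to meet. The called genes numbered 61 and 46 without wild type replicate 1 and 2, 61 without unc-120(st364) replicate 3, and 60 and 62 without fhod-1(tm2363) replicate 2 and 4. Of the other 42 called genes, 28 were higher and 14 lower with some overlap between libraries.

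The plot of the single comparisons shows how far each mutant moved. The 43 shared higher genes had a median log2 fold change of 0.54 in the unc-120(st364) comparison and of 0.67 in the fhod-1(tm2363) comparison, and 32 of them moved further in fhod-1(tm2363). The 59 shared lower genes had medians of -0.57 for unc-120(st364) and -0.59 for fhod-1(tm2363), and 37 moved further in fhod-1(tm2363). Both comparisons use the same 4 wild-type libraries, so these medians are set side by side without a test of their likeness. In the test of unc-120(st364) alone, which called 0.726% of tested genes, 4 shared higher and 19 shared lower genes passed, and in the test of fhod-1(tm2363) alone, which called 3.66%, 25 and 31 passed. The difference between the mutants was called for 5 of the 102 shared genes, where 1.44% of tested genes were called in that contrast. Among the 102 shared genes, 5 were higher and 14 lower by a fold of at least 2 on the log2(value + 1) scale.

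**Figure D1:**
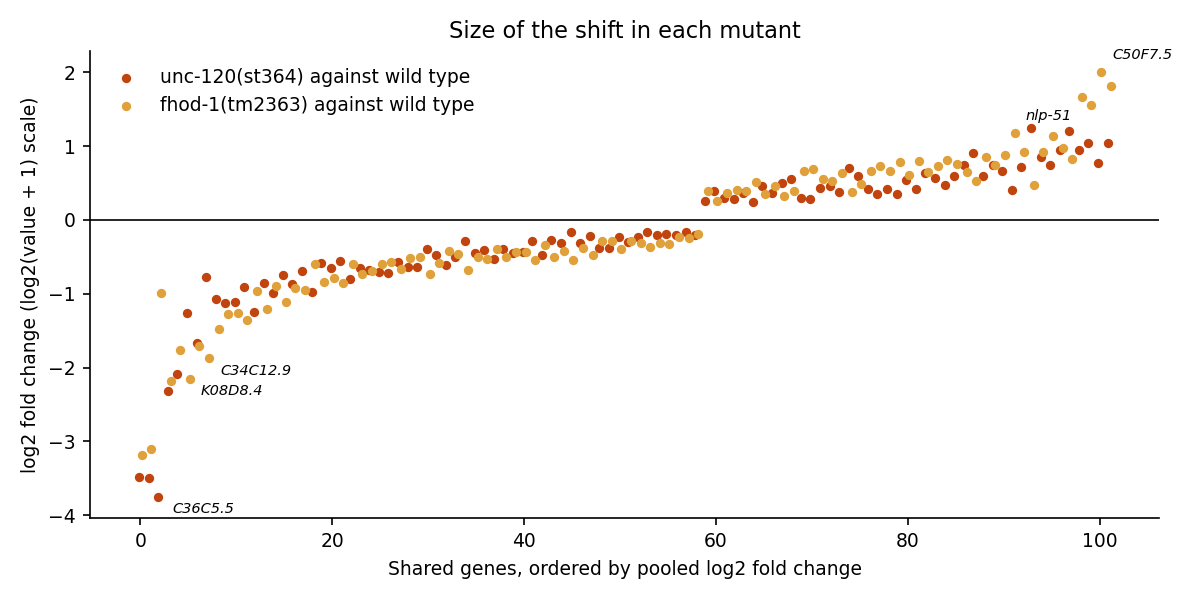
Each of the 102 shared genes is placed along the x axis by its pooled log2 fold change, with its log2 fold change on the log2(value + 1) scale on the y axis for unc-120(st364) against wild type (dark points) and fhod-1(tm2363) against wild type (light points). The 59 lower genes are on the left and the 43 higher genes on the right, and the 5 genes called between the mutants carry their names, with C36C5.5 the farthest below in unc-120(st364) and C50F7.5 the farthest above in fhod-1(tm2363).

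A sequence name was the only name of 47 of the 102 shared genes (46.1%), near the 40.3% of tested genes. Of the 102, 31 (30.4%) belonged to at least 1 of the gene lists examined, against 18.3% of tested genes. The lists were chosen with earlier results of these data known, so this share and the list shares below are a description only. Of the lists, neuropeptide and insulin precursors held the most shared higher genes, 9 (20.9% of the 43, against 1.10% of tested genes). Cuticle collagens held the most shared lower genes, 3 (5.08% of the 59, against 1.40% of tested genes). Fatty acid desaturases and elongases held 2 shared lower genes (3.39%, against 0.22% of tested genes). Chromosome V, with 19.8% of tested genes, held 12 of the 43 shared higher genes (27.9%) and 22 of the 59 shared lower genes (37.3%). Chromosome IV, with 16.2% of tested genes, held 14 of the shared lower genes (23.7%).

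Among tested genes the deepest falls were those of clec-209, which encodes a protein of the C-type lectin family, and of its near copy F56A4.2. F56A4.2 had 6.05, 6.12, 5.68 and 7.43 in unc-120(st364) larvae and 9.40, 6.03, 8.82 and 8.01 in fhod-1(tm2363) larvae, against 96.0, 81.6, 80.6 and 67.7 in wild-type larvae. The groups were far apart, with a pooled log2 fold change of -3.34 ± 0.13 (SE) and an adjusted p of 3.28e-09 by limma. The gene clec-209 lay between 4.92 and 9.64 over the 8 mutant libraries and between 69.1 and 96.2 over the 4 wild-type libraries (log2 fold change -3.30). Release 115 of the WBcel235 annotation names F56A4.2 as a clec-209 gene too, and reads shared by the copies cannot be assigned with certainty. F56A4.3, which lies close to F56A4.2, stood at 2.48 to 3.56 in the mutant libraries and at 14.1 to 28.3 in the wild-type libraries (log2 fold change -2.25 ± 0.17, SE, limma adjusted p = 6.57e-06).

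These 3 genes belong to a stretch of chromosome V in which nearly every detected gene was lower in both mutants. The stretch was picked out after the values were seen, so no test is given for it. It runs from srbc-15 to Y45G12C.4, from 2345676 to 2548150 (202 kb, WBcel235), and holds 51 genes of the table, of which 22 had a mean level of at least 0.3. Of those 22, 21 were below wild type in all 8 mutant libraries, where 0.781% of the 14858 genes at that level were so placed over the whole table. The exception was Y19D10A.11, at 0.378 to 0.885 in the mutants and 0.835 to 2.11 in wild type. By the mean of the 8 mutant libraries the 22 levels were at least 2.16-fold lower than in wild type, with a median of 3.15-fold, and only 3 of the 22 genes passed the filter for testing.

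Apart from srbc-15, every detected gene of the stretch kept a value above 0 in all 8 mutant libraries. The pseudogene srbc-15 was the nearest to absent, with no mutant library above 0.011 and wild-type libraries at 2.31 to 3.87. Y19D10A.5 was at 2.13 to 3.63 in the mutants and 5.83 to 9.33 in wild type, and C13B7.6 at 2.75 to 3.69 in the mutants and 8.77 to 10.7 in wild type. Those 2 genes were 2.76-fold and 3.02-fold lower in the mutants, whereas clec-209 was 10.9-fold lower. The stretch contains copies of itself: 7 pairs of genes have equal length and strand at an offset of 107961 to 108279 bp, among them clec-209 and F56A4.2, irld-53 and irld-35, and C13B7.6 and Y45G12C.16. For clec-209 and F56A4.2 the means were 7.43 and 7.19 in the mutants and 80.9 and 81.5 in wild type. In single libraries the log2 ratio within a pair reached 1.17 for irld-53 and irld-35, which were low in every group, and 0.59 for Y19D10A.11 and F56A4.12. Reads of the copies may be shared, so the 22 genes are not 22 independent readings. Among the 14 detected genes flanking the stretch, 7 on each side, none was lower and 1, pud-2.1, was higher in all 8 mutant libraries. The 17 consecutive detected genes from mct-1 to Y45G12C.4 formed the longest run of shared genes in the table, and no other run exceeded 4 genes.

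**Figure D2:**
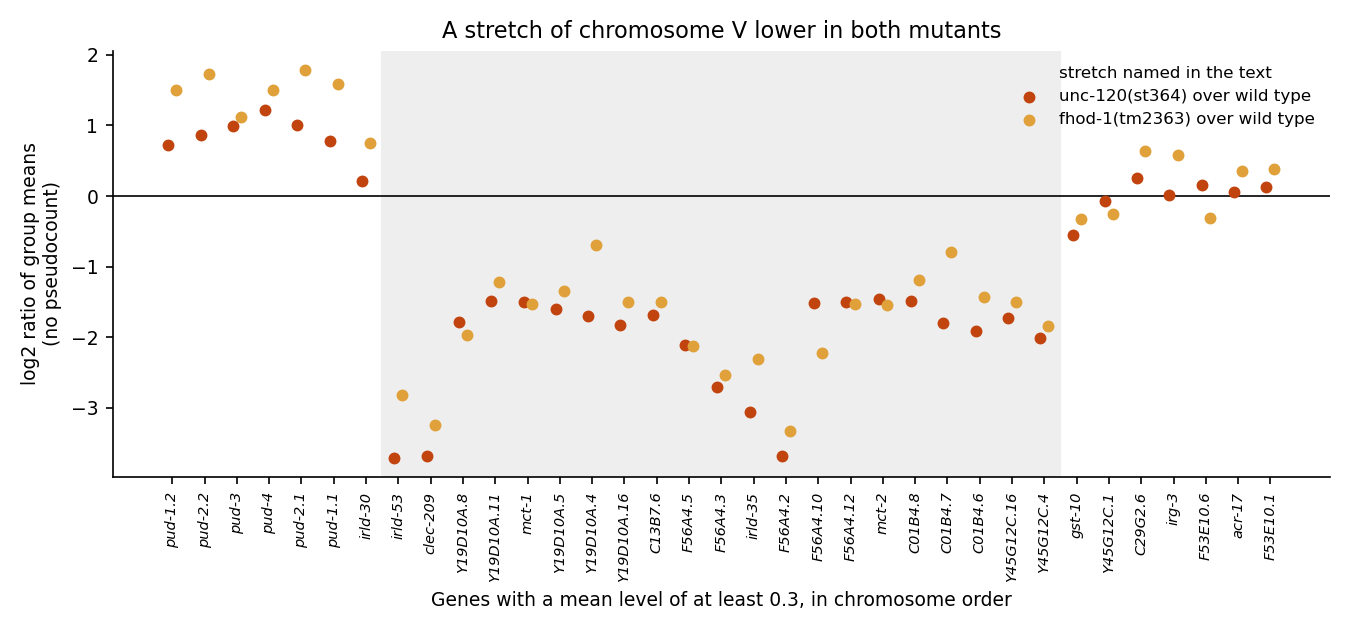
Genes of chromosome V with a mean level of at least 0.3 are shown in chromosome order, with the log2 ratio of group means over wild type on the y axis for unc-120(st364) (dark points) and fhod-1(tm2363) (light points). The shaded genes belong to the stretch described in the text, and all of them lie below 0 in both mutants; srbc-15 is left out because mutant libraries were at 0, and none of the 14 flanking genes is lower in all 8 mutant libraries.

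C36C5.5 lies elsewhere on chromosome V and fell to very different degrees in the 2 mutants. It had 2.12, 2.15, 1.41 and 1.89 in unc-120(st364) larvae and 27.9, 15.3, 19.7 and 14.1 in fhod-1(tm2363) larvae, against 60.7, 33.1, 29.0 and 34.6 in wild-type larvae. The pooled fold change of -2.37 ± 0.21 on the log2 scale (SE) passed the limma test at an adjusted p of 2.19e-05, and unc-120(st364) minus fhod-1(tm2363) was -2.77 on the same scale (adjusted p = 3.22e-05 for that contrast).

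The other largest falls were spread over chromosomes III, IV and V. The cuticle collagen gene col-133 had 44.2, 12.005, 16.9 and 9.63 in unc-120(st364) larvae and 27.6, 19.04, 23.6 and 18.4 in fhod-1(tm2363) larvae, against 166, 65.6, 58.4 and 53.2 in wild-type larvae. Wild type replicate 1 was far above the rest, and without that library the gene's log2 fold change of -1.92 became -1.55 and the adjusted p 0.0501. K08D8.4 was at 16.5, 13.1, 17.4 and 12.5 in unc-120(st364) larvae and at 8.68, 7.96, 7.35 and 6.16 in fhod-1(tm2363) larvae, against 31.8, 38.5, 46.7 and 31.6 in wild-type larvae (log2 fold change -1.71). On chromosome IV 2 neighbours also met the rule, K08D8.6 at 29.5 to 43.3 in the mutants and 47.3 to 54.9 in wild type (adjusted p = 0.0232, passed in 6 of 12 fits that left out a library) and K08D8.3 at 15.8 to 24.6 in the mutants and 24.8 to 33.7 in wild type, which did not pass the test (adjusted p = 0.12).

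Y41C4A.32 was at 13.2 to 21.1 in the mutants and 47.2 to 85.3 in wild type (log2 fold change -1.69). C34C12.9 fell in both but further in fhod-1(tm2363), at 5.05 to 7.004 in unc-120(st364) and 2.09 to 2.54 in fhod-1(tm2363), against 10.3 to 11.8 in wild type. Of the remaining large falls, srr-6 of a chemoreceptor family had a log2 fold change of -1.27, arf-1.1 of the ADP-ribosylation factor family -1.19 and H20E11.1 -1.13. The call of srr-6 was lost without wild type replicate 2 or 3, with log2 fold changes of -1.22 and -1.18. The opposite-strand gene nep-16 overlaps arf-1.1.

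**Figure D3:**
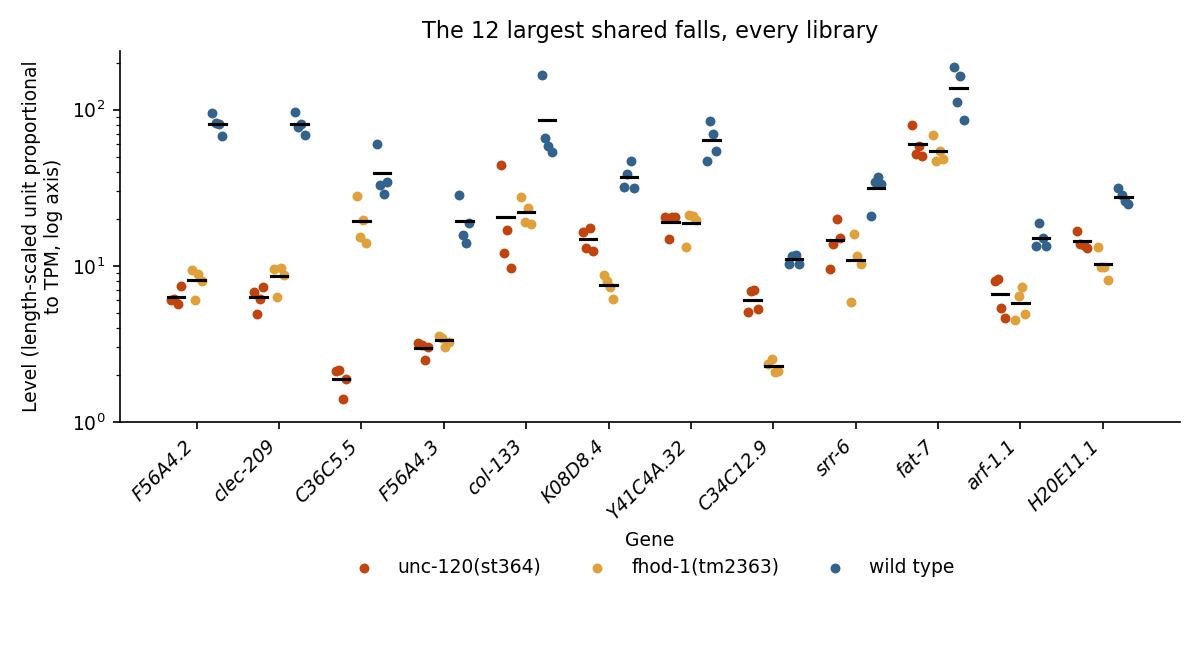
The level of each of the 12 shared genes with the largest falls is shown on a log axis for every library, in the unit proportional to TPM, with unc-120(st364) at the left, fhod-1(tm2363) in the middle and wild type at the right of each gene, and a bar at the mean of 4 libraries. By the rule that chose the genes, no mutant point reaches the lowest wild-type point of its gene, and C36C5.5 and C34C12.9 show the 2 mutants apart from each other.

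Some genes of lipid metabolism were among the falls, while lipases and vitellogenins, described below, were fitted higher. FAT-5, FAT-6 and FAT-7 are the delta-9 desaturases that put the first double bond into saturated fatty acids, and fat-7 had 80.1, 52.1, 58.9 and 50.9 in unc-120(st364) larvae and 68.9, 46.6, 54.5 and 48.1 in fhod-1(tm2363) larvae, against 187, 112, 163 and 86.2 in wild-type larvae. As the rule requires, the groups did not overlap. The gene fat-7 passed the test in all 12 fits that left out a library (log2 fold change -1.20 ± 0.20, SE, limma adjusted p = 0.00694). The gene fat-5 had 11.5, 17.9, 14.1 and 17.4 in unc-120(st364) larvae and 8.91, 16.7, 10.4 and 10.7 in fhod-1(tm2363) larvae, against 31.99, 21.5, 28.8 and 22.5 in wild-type larvae (log2 fold change -0.93, limma adjusted p = 0.0127). Its call was lost without wild type replicate 1 or 3, at -0.83 and -0.88. The opposite-strand gene twk-42 overlaps fat-5. The gene fat-6 just missed the rule, at 194 to 314 in the mutants and 314 to 331 in wild type (log2 fold change -0.38, adjusted p = 0.106), and its transcript is close in sequence to that of fat-7, so reads of the 2 may not be fully separated.

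Over the list of fatty acid desaturases and elongases, 2 of 13 tested genes passed the test as lower, where 0.76% of all tested genes did, and 12 of 13 fitted values were below 0, with a median log2 fold change of -0.16 against 0.00 for all tested genes. The list of genes for fatty acid activation, oxidation and transport had a single gene of 61 called, as lower (1.64%), where 0.76% of all tested genes were. Of the 61, 49 were fitted lower, with a median of -0.15. The called gene was far-2, for a fatty acid and retinol binding protein, which passed in 4 of 12 fits that left out a library. The enoyl-CoA hydratase gene ech-7 of that list met the rule, at 33.2 to 50.04 in the mutants and 51.7 to 63.0 in wild type, without passing the test (adjusted p = 0.089). Chosen after values were seen, dgat-2, for an acyltransferase of triglyceride synthesis, fell to 23.1 to 38.2 in the mutants, against 39.7 to 58.0 in wild type (log2 fold change -0.56, adjusted p = 0.0365), and passed in 4 of 12 fits that left out a library.

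Of 9 tested lysozyme genes 1 fell and 1 rose by the test, where 0.76% of all tested genes were called lower and 0.912% higher. Of the 9, 6 were fitted higher, with a median log2 fold change of 0.27. The gene that rose was lys-7 (log2 fold change 1.78), and the gene that fell, lys-3, was at 5.18 to 11.8 in the mutants and 12.7 to 21.1 in wild type (log2 fold change -1.11, limma adjusted p = 0.0109), a call that was lost without wild type replicate 2 or 3, at -1.07 and -1.05. The cathepsin B-like protease gene cpr-3 was at 27.3 to 36.0 in the mutants and 44.7 to 52.9 in wild type (log2 fold change -0.65, adjusted p = 0.00557), and it passed in all 12 fits that left out a library. The gene act-5, for the actin of the intestinal brush border, met the rule at 407 to 644 in the mutants and 651 to 967 in wild type without passing the test (adjusted p = 0.0804). It is 1 of 9 intestinal markers, of which none was called, where 1.67% of all tested genes were. Of these markers 6 were fitted lower, with a median log2 fold change of -0.23. The summed level of those markers ranged from 1922 to 3163 in unc-120(st364), from 2580 to 3764 in fhod-1(tm2363) and from 2480 to 4701 in wild type. In whole larvae, fewer cells of a type and less RNA per cell cannot be told apart, and the part of the intestinal markers in the falls was not tested.

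The neighbours F35E12.9 and F35E12.10 on chromosome V fell together. F35E12.9 was at 10.2 to 14.2 in the mutants and 15.8 to 23.4 in wild type (log2 fold change -0.71), and F35E12.10 at 23.1 to 30.98 in the mutants and 39.8 to 45.8 in wild type (log2 fold change -0.65), and they passed in 10 and 11 of 12 fits that left out a library. F52B11.2, within 20 kb of col-133, was at 33.0 to 56.2 in the mutants and 57.2 to 60.9 in wild type (log2 fold change -0.49, adjusted p = 0.0305), and it kept its call in only 3 of 12 fits that left out a library.

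Of 42 tested genes of body-wall muscle structure 1 met the rule, where 1.72% of all tested genes did, and none passed the pooled test, where 1.67% did, so both counts were near the background. After a correction of each library for its trend on gene length 7 of the 42 (16.7%) were called lower and none higher, where 3.4% of all tested genes were called lower, and 3 of 9 markers of body-wall muscle were called lower, against none of the 9 without the correction. The 42 structure genes had a median log2 fold change of -0.28 for unc-120(st364) and 0.11 for fhod-1(tm2363), so their pooled median of -0.10 joins medians of opposite sign. For the 9 markers the medians were -0.54 and 0.11, and -0.19 pooled. The gene that met the rule was act-1, for a body-wall muscle actin, at 243 to 464 in the mutants and 480 to 610 in wild type (adjusted p = 0.154), and reads of the closely similar actin genes may be shared. Among 83 tested cuticle collagens, col-133 alone was called, as lower (1.2%, against 0.76% of all tested genes). The genes col-169 and col-170, side by side on the X chromosome, also met the rule, at 209 to 326 and 207 to 294 in the mutants. They were at 350 to 456 and 301 to 397 in wild type. Thus 3 of the 83 met the rule as lower, where 0.996% of all tested genes did. The collagen list had a median of -0.06.

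Neuropeptide and insulin precursors were the list with the most called genes. Neuropeptides are short signalling peptides cut from precursor proteins in neurons and some other cells, and C. elegans encodes them in the flp (FMRFamide-like), nlp (neuropeptide-like) and ins (insulin-like) families. They held 9 of the 43 shared higher genes (20.9%), against 1.10% of tested genes, and none of the shared lower genes. Of 65 tested members 13 rose by the pooled test and none fell, where 0.912% of all tested genes were called higher. Of the 65, 60 had a fitted value above 0, and the median log2 fold change was 0.43, against 0.00 for all tested genes. Taken singly, unc-120(st364) had a median of 0.26 and fhod-1(tm2363) of 0.61, and 2 members were called higher in unc-120(st364) alone, where 0.203% of all tested genes were, and 25 in fhod-1(tm2363) alone, where 2.33% were. The count of 13 rested on the set of libraries: it was 3 without wild type replicate 1, 2 or 3, where 0.405%, 0.405% and 0.287% of all tested genes were called higher, and 25 without wild type replicate 4. It was 9, 16, 3 and 6 without unc-120(st364) replicate 1, 2, 3 and 4, and 6, 4, 5 and 4 without fhod-1(tm2363) replicate 1, 2, 3 and 4. Over all tested genes, 29 were called higher without unc-120(st364) replicate 3, and 27 and 32 without fhod-1(tm2363) replicate 2 and 4. With the 8 mutant libraries fitted as 1 group the count was 2 of 65 (3.08%), where 15 of all 5921 tested genes were called higher.

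The FMRFamide-like precursor gene flp-2 had the largest rise among the called members. It stood at 30.1, 35.1, 44.4 and 47.4 in unc-120(st364) larvae and at 24.8, 31.3, 31.8 and 30.6 in fhod-1(tm2363) larvae, against 14.8, 15.9, 16.1 and 18.2 in wild-type larvae. Its pooled log2 fold change of 1.01 ± 0.13 (SE) had a limma adjusted p of 0.00135, and W07E11.1 overlaps flp-2 on the opposite strand. The gene flp-19 had 52.2, 60.3, 50.5 and 52.7 in unc-120(st364) larvae and 49.5, 63.6, 56.0 and 46.1 in fhod-1(tm2363) larvae, against 28.0, 30.7, 28.8 and 40.2 in wild-type larvae (log2 fold change 0.74, limma adjusted p = 0.00766). As the rule requires, all 8 mutant libraries lay above wild type for both genes.

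The neuropeptide-like precursor gene nlp-51 rose by the pooled test, with a larger shift in fhod-1(tm2363). It had 29.4, 28.9, 36.0 and 34.9 in unc-120(st364) larvae and 50.8, 58.4, 61.2 and 54.6 in fhod-1(tm2363) larvae, against 18.6, 25.7, 26.9 and 26.3 in wild-type larvae. Pooled over both mutants the log2 fold change of 0.79 ± 0.12 (SE) had an adjusted p of 0.00485 by limma, and unc-120(st364) minus fhod-1(tm2363) was -0.78 (adjusted p = 0.0129). In unc-120(st364) alone nlp-51 did not pass the test (adjusted p = 0.407). All 3 of flp-2, flp-19 and nlp-51 passed the test in all 12 fits that left out a library.

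The other 6 shared members rose by smaller amounts. Their pooled log2 fold changes were 0.68 for nlp-3, 0.61 for nlp-11, 0.57 for nlp-8, 0.54 for flp-18, 0.51 for the insulin-like gene ins-17 and 0.48 for flp-5. Each of these calls was lost in 6 or more of the 12 fits that left out a library: nlp-11 and nlp-8 passed in 6, ins-17 in 4, nlp-3 and flp-5 in 3 and flp-18 in 2. The gene nlp-3 was at 67.9 to 98.4 in the mutants and 40.0 to 67.1 in wild type, and flp-5 at 23.8 to 39.6 in the mutants and 20.3 to 23.6 in wild type, so the gap between the groups was narrow. The gene ins-17 overlaps rps-1, an abundantly expressed ribosomal protein gene on the opposite strand. A further 4 list members, nlp-18, ins-35, flp-6 and flp-4, rose by the test with overlap between libraries, and passed in 2 or 3 of the 12 fits. Outside the list, and named after values were seen, pdf-1 and nlp-53, which also encode neuropeptides, had log2 fold changes of 0.54 (adjusted p = 0.0319) and 0.50 (adjusted p = 0.0466), and passed in 3 and 2 of the 12 fits.

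**Figure D4:**
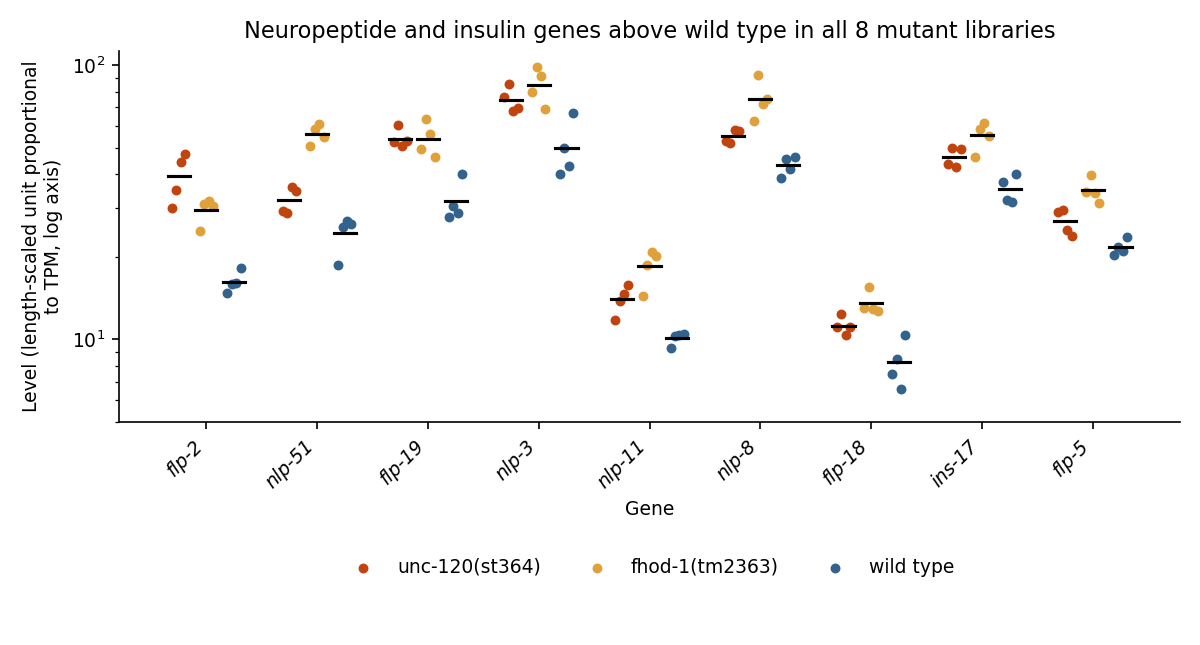
The 9 neuropeptide and insulin precursor genes that met the rule are shown with the level in every library on a log axis, in the unit proportional to TPM, with unc-120(st364) left, fhod-1(tm2363) in the middle and wild type right for each gene, and a bar at the mean of 4 libraries. By that rule every mutant point lies above every wild-type point of its gene, with a wide gap for flp-2 and a narrow one for flp-5 and flp-18.

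General markers of neurons moved with this group. Of 9 tested neuronal markers, genes of synaptic vesicles and peptide processing, all 9 were fitted higher in the mutants, with a median log2 fold change of 0.43. None of them passed the test, where 0.912% of all tested genes were called higher, and after the correction for length 6 of the 9 did, where 3.89% were. For unc-120(st364) that median was 0.20 and for fhod-1(tm2363) 0.51. The summed level of the 10 markers ranged from 542 to 725 in unc-120(st364), from 708 to 884 in fhod-1(tm2363) and from 503 to 582 in wild type, and none of the 10 was at 0. For the neuropeptide and insulin list the sums ranged from 2315 to 3162 for unc-120(st364), from 2793 to 3516 for fhod-1(tm2363) and from 2040 to 2673 for wild type. The markers sbt-1, egl-3 and egl-21, whose products act in making neuropeptides, had log2 fold changes of 0.45, 0.44 and 0.44 (adjusted p = 0.101, 0.441 and 0.304). A rise was not particular to neuronal markers. All 4 tested pharynx markers were fitted higher, with a median of 0.25, made of -0.09 for unc-120(st364) and 0.58 for fhod-1(tm2363). Of 5 tested hypodermis markers 3 were fitted higher, with a median of 0.11, made of 0.24 and 0.08. Of 3 tested germline markers 1 was fitted higher, with a median of -0.26. The part of a larger share of neuronal RNA in the neuropeptide rises was not tested.

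Wild type replicate 4 was the highest wild-type library for 48 of the 65 genes (73.8%), against 30.0% of all tested genes, and without it the list's median was 0.53 with 25 members called higher, where 2.04% of all tested genes then were. The precursors are short, with a median exonic length of 599 bases against 1279 for tested genes, and after a correction of each library for its trend on length the median was 0.41 with 30 members called higher, where 3.89% of all tested genes then were.

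**Figure D5:**
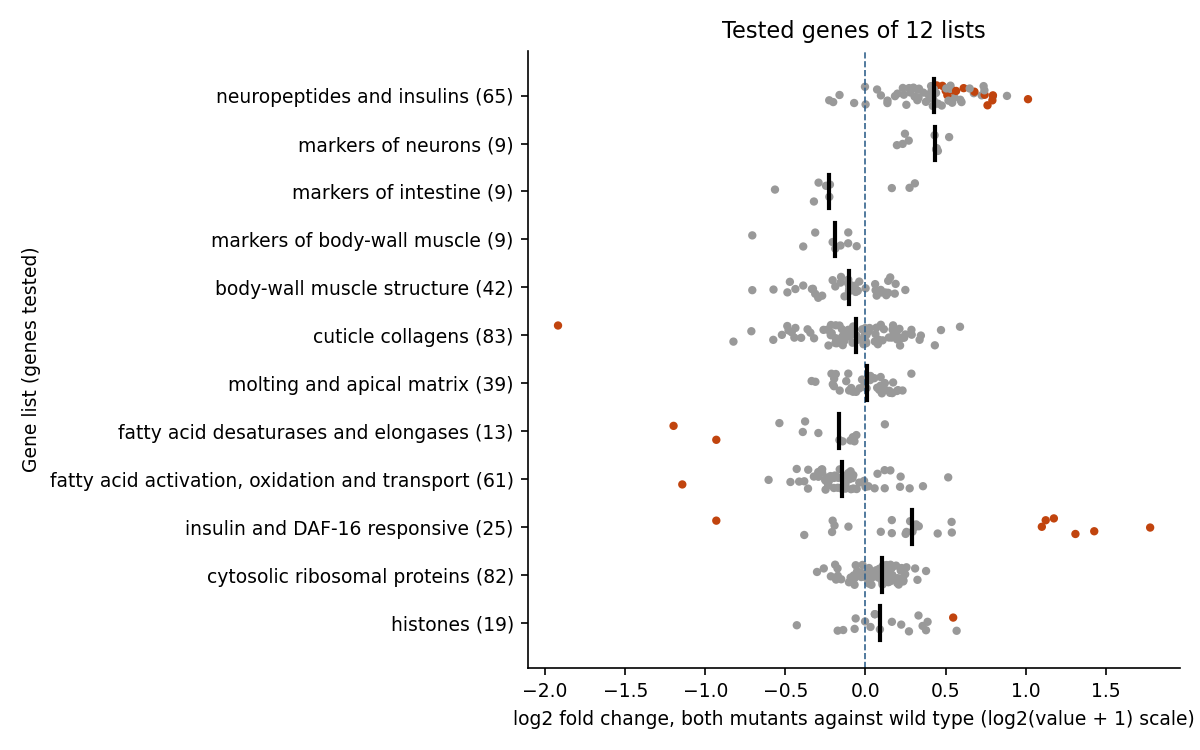
Each point is a tested gene of 1 of 12 gene lists, placed on the x axis by its log2 fold change of both mutants against wild type on the log2(value + 1) scale, with the list and its number of tested genes on the y axis; coloured points passed the test at an adjusted p under 0.05 and the black bar is the list's median. The neuropeptide and neuronal marker lists have the highest medians, both 0.43, and the medians of the muscle structure, collagen and ribosomal protein lists are -0.10, -0.06 and 0.10.

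On the log2(value + 1) scale the largest rise among tested shared genes was that of pud-2.1, a gene named for its protein's increase in insulin receptor mutants. It had 60.6, 55.0, 38.7 and 50.4 in unc-120(st364) larvae and 86.1, 104.1, 67.2 and 94.3 in fhod-1(tm2363) larvae, against 38.5, 24.3, 13.6 and 25.7 in wild-type larvae. Its pooled log2 fold change of 1.43 ± 0.22 (SE) had a limma adjusted p of 0.00411, although unc-120(st364) replicate 3 exceeded wild type replicate 1 only slightly. It lies in a cluster of pud genes at the left edge of the low stretch of chromosome V. Its near copy pud-2.2 and the copies pud-1.1 and pud-1.2 also rose (log2 fold changes 1.31, 1.18 and 1.10) with overlap between libraries, and reads of the copies may be shared. Of 25 tested genes of the insulin and DAF-16 responsive list, 6 rose and 1 fell by the pooled test, where 0.912% of all tested genes were called higher and 0.76% lower. Those 6 were the 4 pud genes, the lysozyme gene lys-7 and dod-3, and the 1 that fell was fat-5. The list's median was 0.29, made of 0.15 for unc-120(st364) and 0.49 for fhod-1(tm2363).

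The gene sodh-1, for an alcohol dehydrogenase of the sorbitol dehydrogenase family, was another of the shared higher genes. It had 38.1, 30.7, 44.0 and 52.2 in unc-120(st364) larvae and 47.8, 65.7, 73.0 and 91.4 in fhod-1(tm2363) larvae, against 12.4, 23.4, 25.8 and 23.9 in wild-type larvae (log2 fold change 1.31, limma adjusted p = 0.00557). C50F7.5 was at 5.06 to 8.59 in unc-120(st364) and 12.7 to 24.5 in fhod-1(tm2363), against 2.66 to 4.90 in wild type. Its pooled log2 fold change was 1.39, although its ratio of means of 3.38 exceeded the 2.73 of pud-2.1, and unc-120(st364) minus fhod-1(tm2363) was -1.23 (adjusted p = 0.0118). Of the remaining large rises, Y7A9D.1 had a log2 fold change of 0.94, pqn-60 of 0.89, the transthyretin-related gene ttr-28 of 0.82 and T28A11.16 of 0.77. Of these, pqn-60, ttr-28 and T28A11.16 passed in 7, 10 and 9 of 12 fits that left out a library.

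The pseudogene K02E7.6 on chromosome II, at 14.8 to 26.7 in the mutants and 2.27 to 11.8 in wild type, had a log2 fold change of 1.31 (adjusted p = 0.0305), which passed in only 5 of 12 fits that left out a library. It lies near F45D11.14, F45D11.15, F45D11.16 and the pseudogene F45D11.1, 4 neighbouring genes between 1004616 and 1023528 that were below the filter and were noticed after values were seen. F45D11.14 was at 6.95 to 10.7 in the mutants and 0.655 to 2.26 in wild type. The 4 genes were 3.30 to 5.66 times as high in the mutants as in wild type. The first 3 had nearly equal values in every library and may share reads.

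Of 19 tested histone genes 3 met the rule as higher, where 0.726% of all tested genes did, and 1 passed the test, where 0.912% did. The histone genes his-72 and his-71, both for the replacement histone H3.3, and his-41 met the rule, and his-72 passed the test, at 103.9 to 157 in the mutants and 73.1 to 99.6 in wild type (log2 fold change 0.55, adjusted p = 0.0367). That call held in only 3 of 12 fits that left out a library. Named after values were seen, unc-129, for a TGF-beta family ligand of body muscle that guides axons, rose to 21.3 to 34.8 in the mutants, against 17.4 to 21.2 in wild type (log2 fold change 0.54, adjusted p = 0.0319), and passed in 4 of 12 such fits. The transcription factor gene mxl-3 met the rule at 132 to 164 in the mutants and 63.1 to 123 in wild type but did not pass the test (adjusted p = 0.0673).

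Most members of some large families were too low to test, so these families were counted over the whole table, where 1.15% of genes met the rule as higher and 0.57% as lower. Of 1444 chemoreceptor genes, 18 (1.25%) were higher and 8 (0.554%) lower, and of 277 nuclear hormone receptor genes, 7 (2.53%) were higher and 1 (0.361%), nhr-8, lower. Of 235 C-type lectin genes, 8 (3.40%) were higher and 2 (0.851%) lower, and of 474 F-box and MATH genes, 8 (1.69%) were higher and 3 (0.633%) lower. Many were near 0: 1384 chemoreceptor, 82 nuclear hormone receptor, 141 lectin and 302 F-box and MATH genes stayed below 1 in all 12 libraries. Genes above 0 numbered 19400 to 19704 in wild type, 19591 to 20143 in unc-120(st364) and 19896 to 20472 in fhod-1(tm2363). The part of detection near 0 in these counts was not tested. None of 82 tested cytosolic ribosomal protein genes was called, nor any of 39 of molting and the apical matrix, where 1.67% of all tested genes were. Markers of sperm and coelomocytes, vitellogenins and the adult collagen col-19 were too low to test.

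The rule has a sharp edge, and the genes nearest to it show how little separates members from non-members. Just inside were folt-2, a folate transporter gene, where the highest mutant value was 47.806 and the lowest wild-type value 47.811, flp-18, at 10.403 in the nearest mutant library and 10.399 in the nearest wild-type library, and poml-3, at 10.644 in the nearest mutant library and 10.635 in the nearest wild-type library. Just outside were pdf-1, at 45.423 in unc-120(st364) replicate 4 and 45.434 in wild type replicate 4, fat-6 and C16D9.4. Of these, pdf-1 and C16D9.4 passed the pooled test without meeting the rule. Their calls held in 3 and 2 of 12 fits that left out a library, and that of poml-3 in 2. The gene folt-2 met the rule without passing the test (adjusted p = 0.12).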

How the data were processed

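The deposited table holds 1 value per gene and library. The submitters' processing notes name Bowtie2 2.2.5, Partek and WBcel235 with no roles; counting and strand settings are not given in the sources used here. The authors' deposited values are called normalized counts, but all columns have 1 total, and they were treated as TPM up to a constant. Values times exonic length lay within 0.1 of a whole step for 29.2% to 33.4% of low values, where an even spread gives 20%. The step was taken from the same low values, so part of that excess is built in. Depth is known only through those steps, and precision rests on the spread between libraries.

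Here, log2(value + 1) of genes at 10 or more in at least 4 libraries was fitted with limma 3.58.1 (R 4.3.3; 3 group means, trend), and the mean of both mutants was contrasted with wild type, with Benjamini-Hochberg adjustment over all tested genes. The mutated genes were tested by exact permutation. The code was tested on simulated data. Genes named are the mutated genes, the 12 largest called shared rises and falls, up to 3 per list, neighbours within 20 kb and the 3 nearest each side of the rule; others are said to be named after values were seen. The members and lists were chosen with earlier results of these data known. Alternatives covered the pseudocount, filter, scaling, gene length, grouping, replicate number and each library left out. Gene ends were shifted by 1 base, since the deposited stop positions are half-open.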

Additional observations from a re-analysis of the deposited data

Results flagged for a closer look

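Within a group of 4 libraries, 6 of 117 sets of values held a library far from the rest, where chance gives about 1 in 20. In wild type, fhod-1 was 4.00 in replicate 4 and 6.09 to 6.24 in the others, and nlp-51 was 18.6 in replicate 1 and 25.7 to 26.9 in the others. T28A11.16 was 14.2 in wild type replicate 3 and 17.5 to 18.2 in the other wild-type libraries. The collagen gene col-133 was 166 in wild type replicate 1 and 53.2 to 65.6 in the other wild-type libraries. Y41C4A.32 was 14.8 in unc-120(st364) replicate 2 and 20.4 to 20.6 in the others of that group, and flp-18 was 15.5 in fhod-1(tm2363) replicate 2 and 12.7 to 13.1 in the others of that group.

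For 5 shared genes the 2 mutants differed from each other by limma with an adjusted p under 0.05. On the log2 scale, unc-120(st364) minus fhod-1(tm2363) was -2.77 for C36C5.5 (adjusted p = 3.22e-05), 1.10 for C34C12.9 (0.00258), -1.23 for C50F7.5 (0.0118), -0.78 for nlp-51 (0.0129) and 0.89 for K08D8.4 (0.0132).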

How the results depend on the processing

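Of 916 values of 38 named genes under other settings, 802 kept direction and side of the threshold, 107 lost the call, 7 gained it and none reversed. The 99 called genes became 310 when the filter was 1 instead of 10, 308 with every gene above 0, 20 at a mean of at least 50, 45 with the 8 mutant libraries as 1 group, 431 with a loess correction on length and 547 with the length slope as a covariate. The 102 shared genes became 270, 404 and 22 under the 3 filters and 233 after the loess correction. The shared genes called between the mutants, 5, became 22, 23 and 0 under those filters, 22 after the loess correction and 11 with the slope covariate. By construction the filters change how many genes are tested; for the other settings the cause was not tested. Leaving out a library gave 41 to 175 called genes, 103 to 323 shared genes and 3 to 10 called between the mutants. The replicate block gave 148 called genes, 80 higher and 68 lower, and with the loess correction 1066, of which 509 higher and 557 lower, and 38 shared genes called between the mutants. The replicate numbers share only a number: over 12 same-numbered pairs the correlation of deviations ran from -0.711 to 0.85, with 5 over 0.1. The 13 neuropeptide and insulin genes called higher became 38 with the slope covariate and 39 with the block and the loess correction. In those 2 fits 313 and 509 of all tested genes were called higher. The median log2 fold change of the histone list, 0.09, was -0.0372, -0.0009 and 0.357 under the 3 filters and 0.0772 to 0.170 with a library left out, and that of the neuronal markers, 0.43, was 0.221 with a pseudocount of 10.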
